A study of Mus musculus with 60 samples.

Results

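Neurons of the medial prefrontal cortex (mPFC) that carried both activity labels of the study, the overlapping ensemble, were compared with neurons of the same mice that carried neither label, the non-ensemble population. Libraries were chosen by their title codes, which gave 6 overlapping and 6 non-ensemble libraries, 12 of the 60 in the series. All mice were Ai14xFosiCre (Ai14:cFos-TRAP2), 8 to 16 weeks old at surgery, and each underwent dual self-administration of i.v. cocaine and oral sucrose, extinction and 1 cue-induced reinstatement session per reward. In these mice the Fos locus drives a tamoxifen-inducible Cre, so 4-hydroxytamoxifen given after the cocaine-cue session turned on tdTomato in the cells that were active then, and cFos was immunolabelled in the dissociated cells after the sucrose-cue session. Overlapping events were positive for tdTomato and cFos and non-ensemble events negative for both, all within a NeuN-positive gate, and the sorted events could include debris. Each library holds 1 population from a pool of 3 mice, with 3 female and 3 male pools, and the populations of a pool come from the same animals. Drug-naive or untagged control mice did not enter, so both sides of the comparison carry the same cocaine and sucrose history.

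Neuronal ensembles are sparse groups of neurons that fire together during an experience, and re-activation of the same cells by a cue is a common working definition of a memory trace. The immediate early gene Fos is transcribed within minutes of strong firing, which is why its locus and its protein serve as activity labels. NeuN, the product of Rbfox3, is a nuclear protein of most mature neurons and is used to gate neurons away from glia and vascular cells. Microglia are the resident macrophages of the brain and do not make NeuN, and they are known for a gene set that includes the colony-stimulating factor receptor, the complement C1q chains and the purinergic receptor P2ry12.

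Total estimated counts ranged from 10197390 to 13727766 in the overlapping libraries and from 10406012 to 17076217 in the non-ensemble libraries. Several labels did not go together with the values. The description field of the male-titled mPFC libraries names the female nucleus accumbens (NAc), the sex field of the male overlapping library of pool 3 says female, and the title codes were followed here. The Y-linked gene Ddx3y was at 29.8 to 50.9 CPM (estimated counts per 1e+06 counts of a library, scaled with TMM factors) in the male-titled libraries and at 0.0752 to 0.797 CPM in those of female pools 1 and 3, but at 15.1 to 20.7 CPM in those of female pool 2. Slc17a7, which encodes the vesicular glutamate transporter of cortical projection neurons, was at 427 to 747 CPM in the libraries of male pools 1 and 3 and at 28.5 to 91.5 CPM in those of the other 4 pools, below the 188 to 568 CPM of the 12 NAc libraries of the same populations. The cortical transcription factor gene Tbr1 (61.8 to 104 against 7.12 to 15.3 CPM) split the pools in the same way. The 4 pools thus went against their cortical label, so results are also given for male pools 1 and 3 alone (4 libraries). The striatal neuron gene Ppp1r1b did not split the pools in this way. It was at 101 to 143 CPM in male pool 1, 337 to 539 CPM in male pool 3 and 269 to 902 CPM in the other 4 pools. Male pools 1 and 3 are therefore not free of striatal transcripts. The share of counts on odor, pheromone and taste receptor genes (chemoreceptor genes), which are not known as genes of cortical neurons, was 1.47 to 5.10% (median 2.52%) in non-ensemble and 2.11 to 6.42% (median 3.78%) in overlapping libraries and was higher in the overlapping library of 6 of 6 pools.

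**Figure D1:**
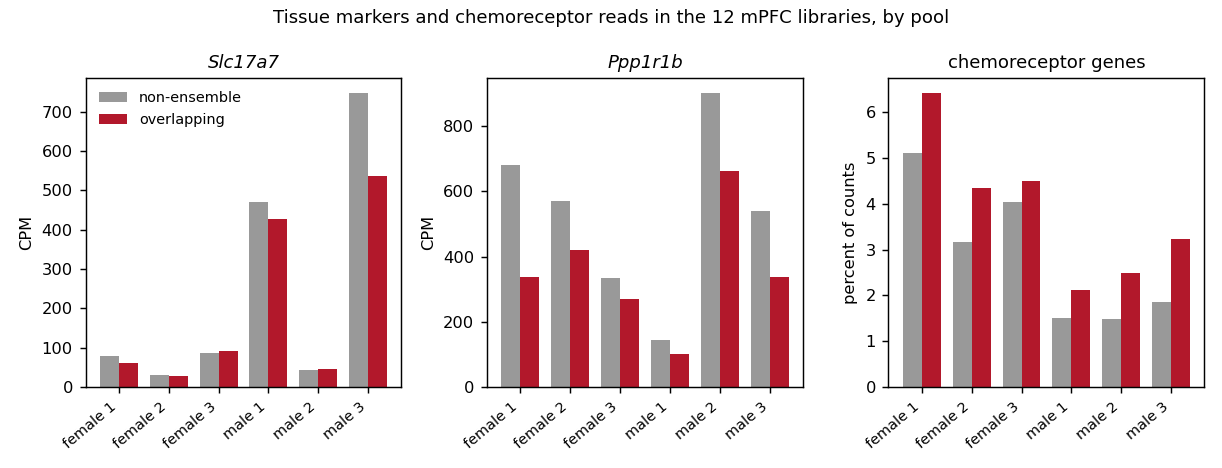
Bars give CPM of Slc17a7 and of Ppp1r1b, a striatal neuron gene, and the percent of counts on chemoreceptor genes, in the non-ensemble (grey) and overlapping (red) library of each of the 6 mPFC pools. Slc17a7 is above 400 CPM only in male pools 1 and 3, and the chemoreceptor share is higher in the overlapping library of each pool.

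The comparison asks how the transcriptome of neurons recruited by both rewards differed from that of unlabelled neurons. With the pool as a block, 943 of 23602 genes tested (4.00%) were higher and 2713 (11.5%) lower in overlapping libraries at an adjusted p under 0.05 (edgeR quasi-likelihood test). At the thresholds of the study (adjusted p under 0.01, change of over 0.75 on the log2 scale), 69 genes (0.292%) were higher and 40 (0.169%) lower. Markers of microglia were prominent among the genes that were higher, although Spata31f1c and Knop1 had larger log2 fold changes. The lists with over 70% of their members lower were those of mitochondrially encoded, oxidative phosphorylation, glycolysis, ribosomal protein, pan-neuronal, postsynaptic, myelin and astrocyte genes. Over all genes tested the median log2 fold change was 0.03, but it was -0.11 over the 11373 protein-coding genes with a mean of at least 10 CPM, of which 674 (5.93%) were higher and 2639 (23.2%) lower, and 0.21 over the 8063 protein-coding genes under that level. Lists of abundant genes are therefore best read against the share of 23.2%. Male pools 1 and 3 alone gave 217 higher (0.966%) and 124 lower genes (0.552%) of 22463, and with the chemoreceptor share as a covariate beside the pool 13 (0.0551%) were higher and 62 (0.263%) lower. The share was higher in the overlapping library of 6 of 6 pools. Beside the pool block, the covariate and the population can thus be separated only in part, and calls lost in that fit do not show a source. With sex in place of the pool block the counts were 82 higher (0.347%) and 217 lower (0.919%), and without female pool 1 the 40 lower genes at the study thresholds became 15.

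Microglial and macrophage markers rose as a group. Of 21 tested genes of the list, 17 were higher and 0 lower, 16 of them at the thresholds of the study, and the median log2 fold change was 1.17, a 2.25-fold difference. Their summed level was 331 to 466 CPM (median 355) in non-ensemble and 709 to 922 CPM (median 788) in overlapping libraries, so every overlapping library lay above every non-ensemble one. Single genes did so too in 15 of the 21, against 0.487% of all genes tested. In male pools 1 and 3 alone 9 of the 21 passed (median 0.99), with the chemoreceptor share as a covariate 8 (median 1.40), and without female pool 2 again 17 (median 1.23). NeuN-positive sorting was meant to leave such cells out, and whether these transcripts came from microglia among the sorted events or from labelled neurons was not tested.

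**Figure D2:**
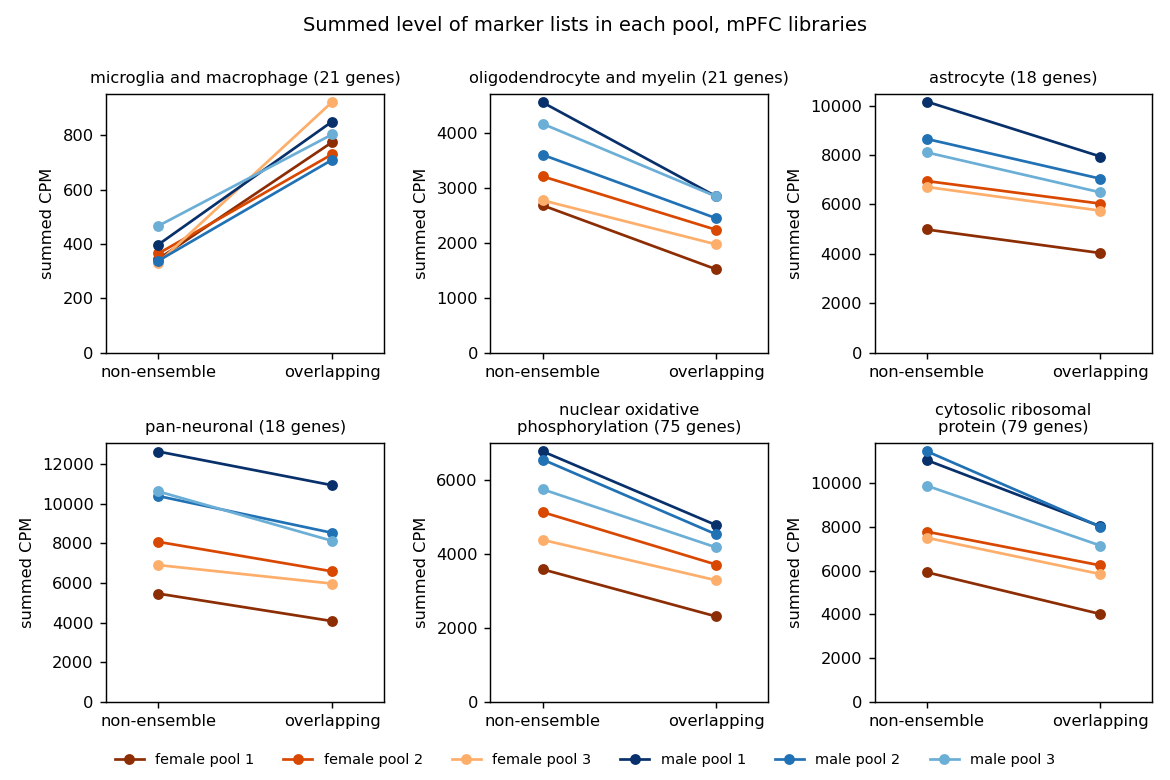
Points give the summed CPM of 6 gene lists in the non-ensemble and overlapping library of each mPFC pool, joined by a line per pool (reds and oranges, female; blues, male; axes start at 0). The microglia and macrophage sum rises in all 6 pools and the other 5 sums fall in all 6.

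Csf1r, the receptor on which microglia depend for survival, was at 43.3 CPM (lowest), 56.2 (median) and 68.4 (highest) in the 6 non-ensemble libraries and at 129, 138 and 182 CPM in the 6 overlapping ones. The populations did not overlap, and each pool showed the rise. The log2 fold change was 1.43 (SE 0.10, adjusted p = 5.69e-06, edgeR). It was 1.39 (adjusted p = 0.000137) in male pools 1 and 3 alone and 1.99 (adjusted p = 0.00206) with the chemoreceptor share as a covariate.

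The 3 chains of complement C1q, which opens the classical complement cascade and tags synapses for removal, moved alike. C1qa (GRCm39 chromosome 4, 136623223 to 136626161) was at 7.52, 12.9 and 19.9 CPM (lowest, median, highest) in non-ensemble and 32.5, 38.3 and 44.8 CPM in overlapping libraries. These ranges did not meet, and the log2 fold change was 1.54 (SE 0.16, adjusted p = 3.76e-05, edgeR). C1qb and C1qc, its neighbours on the same chromosome, had log2 fold changes of 1.19 (SE 0.12) and 1.25 (SE 0.12), also without overlap of the populations. P2ry12, the ADP receptor of surveying microglia, was at 6.11, 7.15 and 14.7 CPM against 18.1, 23.7 and 32.1 CPM, a log2 fold change of 1.48 (SE 0.20, adjusted p = 0.000194, edgeR). Tmem119, a membrane protein used to tell microglia from blood-derived macrophages, rose by 1.25 (SE 0.17) on the log2 scale, with no overlap. Laptm5, a lysosomal protein of blood-derived and microglial cells, rose by 1.23 (SE 0.12), and Siglech, a sialic acid lectin of microglia, by 1.17 (SE 0.16). Lysosomal and adhesion genes of the list passed too, with the scavenger receptor gene Cd68 at 1.24 (SE 0.21), the protease gene Ctss at 1.02 (SE 0.15), the matrix gene Olfml3 at 1.03 (SE 0.14) and the integrin gene Itgam at 0.75 (SE 0.12), none with overlap, and the receptor gene Gpr34 at 1.47 (SE 0.31) with overlap.

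Outside the list, 4 more of the 15 highest genes are known from microglia or macrophages. Mpeg1, the macrophage perforin, rose by 1.14 (SE 0.15). Slco2b1, an organic anion transporter, rose by 1.31 (SE 0.11), and its highest non-ensemble library (19 CPM) lay below its lowest overlapping one (31.2 CPM). Fcrl2 and Abca9 rose by 1.49 (SE 0.17) and 1.28 (SE 0.19) with a slight overlap of the populations. Trem2, the lipid receptor of microglia (0.91, SE 0.14), and the fractalkine receptor gene Cx3cr1 (0.80, SE 0.12) rose less, and Cx3cr1 libraries overlapped. The 4 members of the list that did not pass were Tyrobp at 1.01 (adjusted p = 0.0586), Fcer1g at 1.09 (adjusted p = 0.0525), Mrc1, a marker of border macrophages, at 0.73 (adjusted p = 0.101) and Aif1, which encodes the staining antigen Iba1, at 0.19 (adjusted p = 0.738, all edgeR). Tyrobp, Fcer1g and Aif1 had medians of 2.16, 1.93 and 4.42 CPM in non-ensemble libraries, so few counts lay behind them. The 15 protein-coding genes with the highest log2 fold change and a mean of at least 10 CPM also held Spata31f1c and Knop1. Spata31f1c was at 0 CPM in 3 of 6 non-ensemble and in 1 overlapping library and between 15.6 and 31.7 CPM in the other 5 overlapping ones (log2 fold change 2.88, SE 0.67). Knop1 ran from 0 to 30.4 CPM and from 3.91 to 36.2 CPM (1.61, SE 0.44, and 1.40 with an adjusted p of 0.0922 without male pool 2). Both had libraries at either end of their range in both populations, and Spata31f1c belongs to a family of near-identical copies, so its counts are uncertain.

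**Figure D3:**
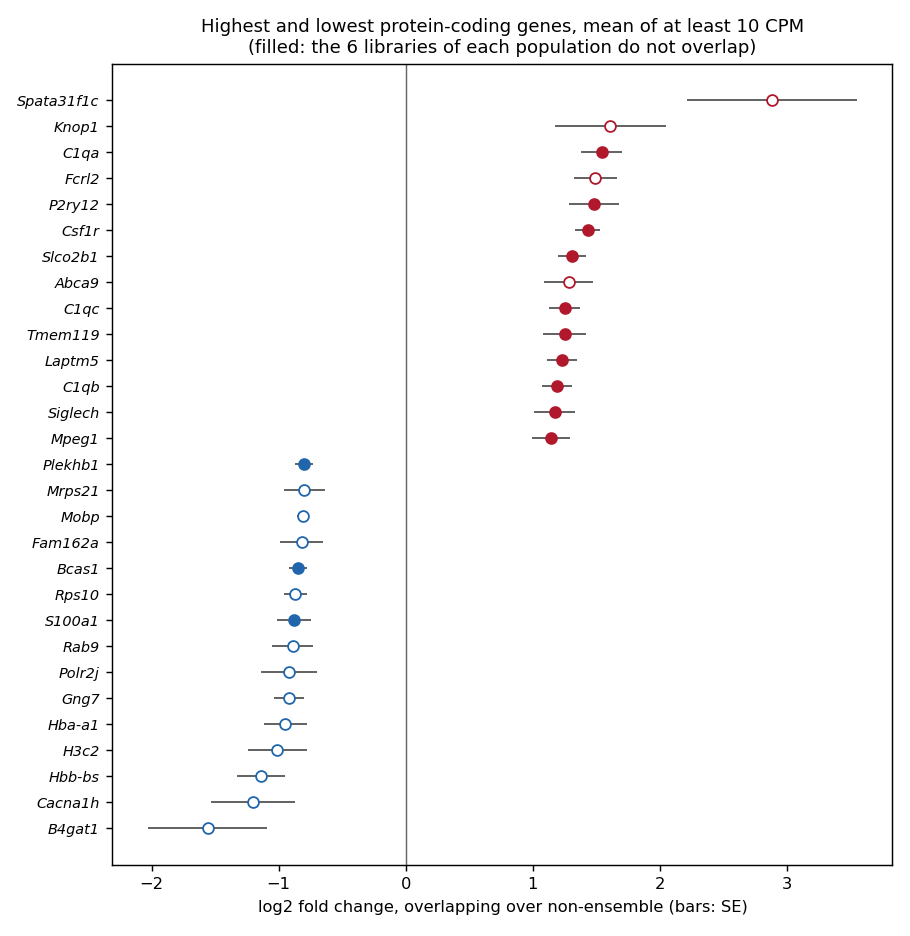
Points give the log2 fold change (overlapping over non-ensemble, bars SE, 6 pools) of 14 of the 15 highest and of the 15 lowest protein-coding genes past an adjusted p of 0.05 with a mean of at least 10 CPM. Filled points mark genes whose 2 populations do not overlap, 10 of the 14 highest and 3 of the 15 lowest.

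Promoters of microglial genes among these 15 are shown because the genes moved together. Sequences are RefSeq promoters of mouse (GRCm38.p6), in which 14 of the 21 list genes were matched, 5 of them among the 15 highest. Capitals mark GAGGAA or its reverse complement TTCCTC, the core recognised by PU.1, the ETS factor of the macrophage lineage, searched on both strands over 300 bases (250 before to 50 after the gene start). The letters occurred in 28.3% of all 32851 promoters, counted over genes in 31.3% of 27025, and in 10 of the 14 list genes with a promoter (71.4%). A match describes these letters only. Each line runs 5′ to 3′ on the gene's strand, from 200 bases before to 10 after its start.
C1qb: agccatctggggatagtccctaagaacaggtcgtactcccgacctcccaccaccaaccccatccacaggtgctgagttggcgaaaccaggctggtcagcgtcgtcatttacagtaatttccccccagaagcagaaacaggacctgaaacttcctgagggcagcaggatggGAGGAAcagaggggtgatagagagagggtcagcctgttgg
C1qc: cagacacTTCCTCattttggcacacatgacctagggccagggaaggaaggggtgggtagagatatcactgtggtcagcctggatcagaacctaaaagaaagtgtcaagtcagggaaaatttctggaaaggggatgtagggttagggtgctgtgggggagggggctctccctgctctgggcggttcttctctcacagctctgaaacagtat
Laptm5: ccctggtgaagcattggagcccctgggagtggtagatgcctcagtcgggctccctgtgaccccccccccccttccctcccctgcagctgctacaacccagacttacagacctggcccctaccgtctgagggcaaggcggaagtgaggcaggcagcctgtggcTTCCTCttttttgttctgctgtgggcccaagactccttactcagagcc
P2ry12: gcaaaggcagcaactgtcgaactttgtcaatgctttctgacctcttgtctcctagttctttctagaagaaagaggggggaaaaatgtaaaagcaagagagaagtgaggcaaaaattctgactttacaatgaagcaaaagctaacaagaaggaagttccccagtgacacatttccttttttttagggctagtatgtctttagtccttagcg
Siglech: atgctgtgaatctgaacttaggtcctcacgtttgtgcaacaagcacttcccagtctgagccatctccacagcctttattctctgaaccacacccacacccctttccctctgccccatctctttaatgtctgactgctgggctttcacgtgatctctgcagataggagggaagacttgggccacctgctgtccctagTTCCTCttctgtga
The windows are chr4:136886191-136886400 (minus strand) for C1qb, chr4:136892905-136893114 (minus) for C1qc, chr4:130913116-130913325 (plus) for Laptm5, chr3:59262976-59263185 (minus) for P2ry12 and chr7:55767984-55768193 (plus) for Siglech. P2ry12 held no match in its 300 bases, and its log2 fold change was the highest of the 5.

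Markers of vascular and blood cells, which the gate should also have left out, gave few calls. Of 19 endothelial genes, 0 were higher and 1 was lower, with a median of 0.01. The tight junction gene Cldn5 (log2 fold change -0.24, SE 0.23, adjusted p = 0.579, edgeR) and the receptor gene Flt1 (0.11, SE 0.13, adjusted p = 0.642, edgeR) did not pass. Of 20 pericyte, smooth muscle and fibroblast genes, 0 were higher and 1 was lower (median -0.11). Blood markers gave 1 higher and 2 lower of 11 tested: the leukocyte phosphatase gene Ptprc, which microglia also express, rose by 0.85 (SE 0.21, adjusted p = 0.0119), and the globin genes Hbb-bs (-1.14, SE 0.19, adjusted p = 0.0007) and Hba-a1 (-0.95, SE 0.17, adjusted p = 0.00141, all edgeR) fell. Globin copies share much of their sequence, so their split is uncertain. Interferon and MHC class I genes gave 3 higher and 0 lower of 22 (median 0.14), among them H2-T23 (0.34, SE 0.07), a nonclassical MHC gene, H2-D1 (0.43, SE 0.13), a classical one, and the antiviral gene Oas3 (0.59, SE 0.19). H2-D1 and Oas3 each missed the threshold in 4 of the 6 fits that left out a pool (without male pool 2 adjusted p = 0.094 and 0.102, edgeR) and had values of -0.18 and -0.24 with the chemoreceptor covariate.

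Oligodendrocyte and myelin genes were lower, with 16 of 21 passing, 0 higher and a median of -0.46. Their sum was 2688 to 4567 CPM (median 3414) in non-ensemble and 1521 to 2850 CPM (median 2347) in overlapping libraries, and it fell in 6 of 6 pools although the ranges overlapped between pools. Mobp, a structural myelin protein, was at 403, 526 and 823 CPM against 210, 306 and 444 CPM. Within every pool the overlapping library was the lower one, with a log2 fold change of -0.81 (SE 0.05, adjusted p = 9.95e-07, edgeR). Mbp, the major protein of compact myelin, had -0.76 (SE 0.05), and Cnp, an enzyme of uncompacted myelin, -0.57 (SE 0.07). Bcas1, a marker of newly myelinating cells that was among the oligodendrocyte precursor list (4 of 12 lower), fell by 0.85 (SE 0.07) and ran from 121 to 203 CPM in non-ensemble and from 54.4 to 117 CPM in overlapping libraries, with no overlap, as 0.114% of all genes showed in that direction. In male pools 1 and 3 alone 4 of 21 myelin genes passed, at a median of -0.42, with no replicate block 7, with length-scaled counts 5 and with the covariate 2.

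Astrocyte genes gave 13 lower and 0 higher of 18 (median -0.22), but 7 or 8 lower with any 1 pool left out, 2 in male pools 1 and 3 alone, 2 with the covariate, and 1 each with no replicate block and with length-scaled counts. Their sum was of 4983 to 10158 CPM in non-ensemble and 4031 to 7936 CPM in overlapping libraries. Slc1a2, the main glutamate transporter of astrocytes, had -0.36 (SE 0.04), Gfap, the astrocytic intermediate filament, -0.53 (SE 0.07), and Aldoc, an aldolase of astrocytes, -0.59 (SE 0.05). In bulk RNA of sorted events, fewer cells of a type and less RNA per cell cannot be told apart, and this holds for each list here.

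Neuronal genes were lower in the overlapping population. Of 18 pan-neuronal genes, 15 were lower and 0 higher, at a median of -0.36 and a sum of 5463 to 12645 CPM (median 9238) against 4075 to 10944 CPM (median 7361). Map2, the dendritic microtubule protein, was at 1162, 1835 and 2421 CPM in non-ensemble and at 820, 1397 and 1603 CPM in overlapping libraries. The populations overlapped, yet the overlapping library was lower in 6 of 6 pools, with a log2 fold change of -0.46 (SE 0.04, adjusted p = 1.48e-05, edgeR). Snap25, of the vesicle fusion machinery, had -0.48 (SE 0.06), Nefl, the light neurofilament, -0.53 (SE 0.06), and Uchl1, the neuronal ubiquitin hydrolase, -0.39 (SE 0.05). Rbfox3, the gene of the NeuN gate itself, was at 118, 197 and 254 CPM against 104, 160 and 201 CPM, a log2 fold change of -0.33 (SE 0.07, adjusted p = 0.00376, edgeR), but -0.22 without female pool 1 (adjusted p = 0.0562) and -0.26 without male pool 3 (adjusted p = 0.0506). With sex in place of the pool block 0 of the 18 passed at the same median, in male pools 1 and 3 alone 2 passed (median -0.29), and with length-scaled counts 3 (median -0.22). The chemoreceptor share and the microglial sum were higher in the same libraries, and the part of the microglial sum in this fall was not tested.

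**Figure D4:**
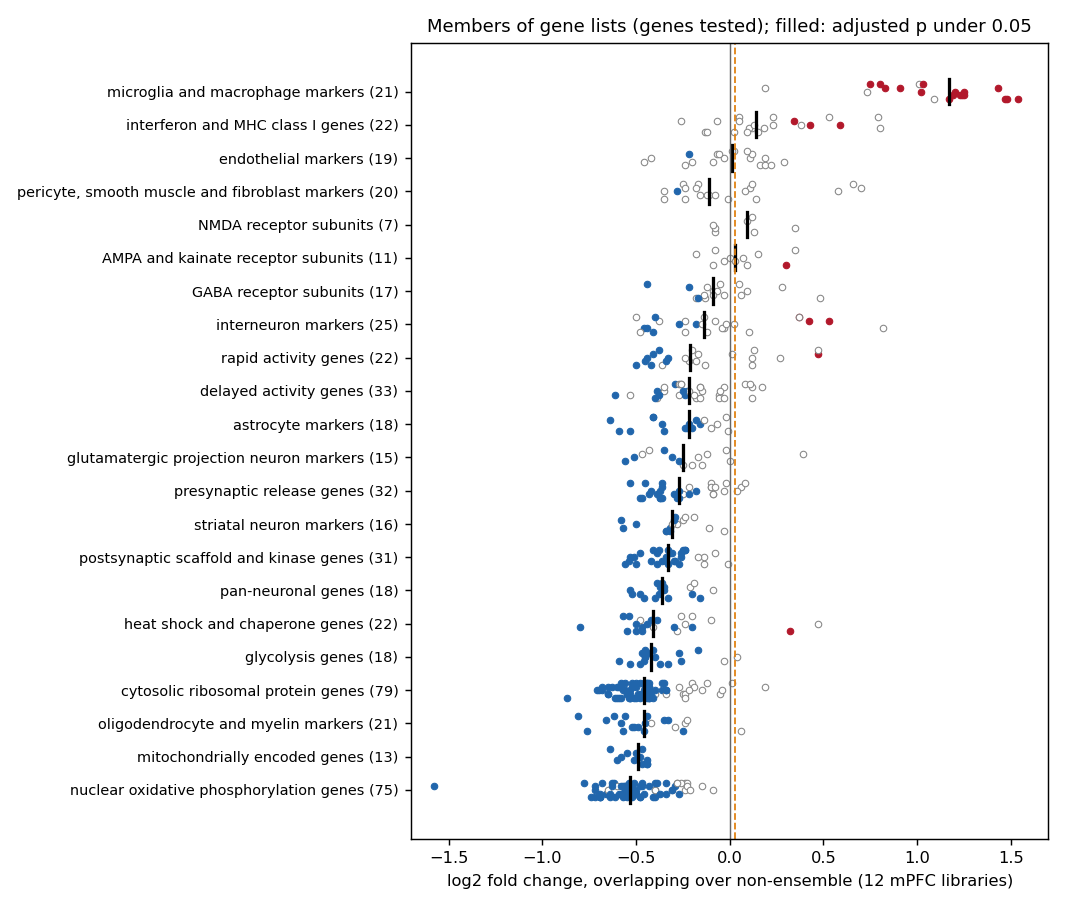
Each point is a gene of the list named at left (number of genes tested in brackets), at its log2 fold change between the 6 overlapping and 6 non-ensemble mPFC libraries, with filled red (higher) or blue (lower) points past an adjusted p of 0.05, black bars at the list medians and a dashed line at the median of all genes (0.03). The microglial list stands to the right at a median of 1.17, and the oxidative phosphorylation list lies lowest at -0.53.

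Markers of neuron classes were lower at shares of 24 to 50% of a list, against 23.2% of abundant genes. Of 15 glutamatergic genes 5 were lower (median -0.25), led by Camk2a, the alpha subunit of the calcium/calmodulin kinase (-0.56, SE 0.04), and Nrgn, the calmodulin-binding neurogranin (-0.51, SE 0.07), while Slc17a7 had -0.15 (SE 0.07, adjusted p = 0.202, edgeR). Upper layer markers gave 4 lower of 10 (median -0.15), with Calb1, the calcium buffer calbindin, at -0.66 (SE 0.09). Deep layer markers gave 7 lower of 17 (median -0.20), with Bcl11b, the factor of subcerebral projection neurons that striatal neurons express too, at -0.49 (SE 0.07) and Pcp4, a calmodulin regulator, at -0.61 (SE 0.08). Without female pool 1 the deep layer calls were 2, as they were without male pool 2 or 3. Among 25 interneuron markers 6 were lower (24%, at the share of abundant genes) and 3 higher: the GABA-synthesising enzyme genes Gad1 (-0.41, SE 0.05) and Gad2 (-0.46, SE 0.05) fell, as did the transcription factor gene Sp9 (-0.44, SE 0.08), and Chodl, of the long-range somatostatin cells, rose by 0.42 (SE 0.07), from 126 to 313 CPM to 169 to 384 CPM. Sst, the somatostatin gene, did not pass at 0.10 (SE 0.07, adjusted p = 0.391, edgeR). Striatal neuron markers gave 8 lower of 16 (median -0.31), 3 without female pool 1 and 5 without male pool 3. Among the 8 was Ppp1r1b, the dopamine-regulated phosphatase inhibitor DARPP-32, at -0.58 (SE 0.07). Gng7, a G protein subunit of striatal neurons that is not on this list, was among the 15 lowest genes at -0.92 (SE 0.12). Ppp1r1b reached 143 to 902 CPM in these non-ensemble libraries, and Slc17a7 and Tbr1 were low in all pools but male pools 1 and 3. The names of the glutamatergic, layer and interneuron lists thus do not place these falls in cortical cells. Whether they came from cortical or striatal neurons was not tested.

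Many synaptic genes were lower, while few receptor subunits passed the test. Of 31 postsynaptic scaffold and kinase genes 26 were lower (median -0.33), with Ppp1r9b, the spine protein spinophilin, at -0.48 (SE 0.04). Of 32 presynaptic release genes 19 were lower (median -0.27), with Rab3a, a vesicle GTPase, at -0.53 (SE 0.05). In male pools 1 and 3 alone 2 postsynaptic and 1 presynaptic genes passed, with no replicate block 2 and 0, with length-scaled counts 2 and 2, and with the covariate 2 and 0. Of 7 NMDA receptor subunits 0 passed (median 0.09), and of 11 AMPA and kainate subunits 1 was higher (median 0.03), the kainate receptor gene Grik2 at 0.30 (SE 0.06, adjusted p = 0.00366, edgeR), from 79.6, 86.2 and 115 CPM to 102, 107 and 144 CPM. Of 17 GABA receptor subunits 3 were lower (median -0.09), among them Gabra5 at -0.44 (SE 0.13) and Gabbr1 at -0.17 (SE 0.05). With a pool left out 0 or 1 of them passed, Gabbr1 in none of the 6 fits (adjusted p = 0.0776 to 0.386, edgeR) and Gabra5 in 1. Receptors for dopamine, serotonin and adrenaline gave 3 lower of 26 (median -0.07), led by the alpha-2C adrenoceptor gene Adra2c (-0.63, SE 0.10), and metabotropic glutamate receptors 1 lower of 7 (median 0.02). Opioid and other neuropeptide genes gave 2 lower of 23 (median 0.02), the proenkephalin gene Penk (-0.38, SE 0.08) and the substance P precursor gene Tac1 (-0.50, SE 0.13). Penk was at -0.22 without female pool 1. Tac1 did not pass without female pool 1, female pool 2 or male pool 1 (adjusted p = 0.107, 0.0773 and 0.0587, edgeR). Potassium channel genes gave 2 higher and 5 lower of 37 (median -0.13), calcium channel genes 2 and 5 of 18 (median -0.15), sodium channel genes 0 and 2 of 9 (median -0.14), and neurexins, neuroligins and related adhesion genes 0 and 1 of 22 (median -0.02). Lower shares were 13.5% for potassium, 27.8% for calcium and 22.2% for sodium channels, against 23.2% of abundant genes. They were 17.6% for GABA receptors, 11.5% for dopamine, serotonin and adrenaline receptors, 14.3% for metabotropic glutamate receptors and 8.7% for neuropeptides. Of these shares only that of calcium channels lay above the one of abundant genes. Kcnab2, a potassium channel beta subunit, had -0.49 (SE 0.06), and Cacnb3, a calcium channel beta subunit, -0.39 (SE 0.08, but 0.00 with length-scaled counts). The sodium channel beta subunit genes Scn2b and Scn4b had -0.24 (SE 0.06) and -0.31 (SE 0.08), Scn4b at -0.17 (adjusted p = 0.13, edgeR) without female pool 1. Scn4b also missed the threshold without female pool 2 or 3 or male pool 2 or 3 (adjusted p = 0.0511 to 0.0662, edgeR). Scn2b missed it without female pool 1 or 2 or male pool 3 (adjusted p = 0.0557 to 0.112, edgeR). Among perineuronal net and matrix genes 1 was higher and 2 lower of 24 (median 0.12), with the collagen gene Col6a1 at 0.34 (SE 0.09) and the protease gene Adamts4 at -0.60 (SE 0.11).

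Fos, the gene of both labels, did not pass the test. The values here are RNA, while cells were sorted by cFos protein and by tdTomato turned on after the earlier cocaine-cue session. The paper quantified RNA of activity genes in further support of its tagging and reported it mostly in the sucrose-seeking ensemble. It also cautions that such RNA peaks and decays at differing times, with a short window for Fos. Fos RNA is therefore not taken here as a test of the sort. Fos was at 6.95, 14 and 34.3 CPM in non-ensemble and at 7.42, 14.6 and 33.6 CPM in overlapping libraries. It was higher in the overlapping library in 2 of 6 pools, and its log2 fold change was -0.13 (SE 0.16, adjusted p = 0.676, edgeR). Of 22 rapid activity genes 1 was higher (4.55%, against 5.93% of abundant genes) and 8 lower (36.4%, against 23.2%), at a median of -0.21. Of 33 delayed activity genes 0 were higher and 8 lower (24.2%, median -0.22). Without female pool 1 the lower ones were 3 and 2, with length-scaled counts 1 and 1, and with no replicate block, with the covariate or in male pools 1 and 3 alone 0 and 0. The higher one was Npas4, a transcription factor induced by calcium entry, at 11.3, 15.5 and 30.8 CPM against 18.3, 22.5 and 34.7 CPM. It was higher in 6 of 6 pools, at a log2 fold change of 0.47 (SE 0.13, adjusted p = 0.021, edgeR), and at 0.23 (adjusted p = 0.74) in male pools 1 and 3 alone and 0.41 (adjusted p = 0.0573) without female pool 1. Arc, which traffics AMPA receptors, fell by 0.44 (SE 0.06), the zinc finger factor genes Egr3 and Egr4 by 0.50 (SE 0.11) and 0.45 (SE 0.08), and the nuclear receptor gene Nr4a1 by 0.38 (SE 0.09) on the log2 scale, with Egr3 at -0.32 without female pool 1. Nr4a1 did not pass without female pool 1 or male pool 3 (adjusted p = 0.087 and 0.0902, edgeR). Among delayed genes Rgs4, a brake on G protein signals, had -0.61 (SE 0.08), the scaffold gene Homer1 -0.29 (SE 0.07) and the kinase gene Plk2 -0.38 (SE 0.07). Homer1 did not pass without female pool 1 or male pool 3 (adjusted p = 0.0895 and 0.066, edgeR). Constitutive Fos partners gave 1 higher and 6 lower of 12 (50% lower, median -0.23). Feedback genes of the MAP kinase pathway gave 0 and 4 of 20 (20% lower, under the 23.2% of abundant genes, median -0.23), with the phosphatase gene Dusp8 at -0.44 (SE 0.06). Clock genes gave 0 and 6 of 19 (31.6% lower, median -0.19), with the clock output gene Hlf at -0.28 (SE 0.07). Hlf did not pass without female pool 1, female pool 3 or male pool 2 (adjusted p = 0.1, 0.0566 and 0.0738, edgeR). Without female pool 1 the lower Fos partners were 1 and the lower clock genes 2.

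Genes of energy metabolism and protein synthesis were lower nearly throughout in overlapping libraries, and most were so in the other labelled populations too (given below). All 13 mitochondrially encoded genes tested were lower, with a median of -0.49 and a sum of 20064 to 29116 CPM (median 22418) against 12706 to 20849 CPM (median 17484). mt-Nd4, a subunit of complex I, was at 1947, 2174 and 2616 CPM against 1170, 1641 and 1941 CPM, with no overlap of the populations, and its log2 fold change was -0.50 (SE 0.06, adjusted p = 8.04e-05, edgeR). mt-Nd2, of the same complex, had -0.51 (SE 0.06) and mt-Co1, of complex IV, -0.49 (SE 0.05). Of 75 nuclear genes of oxidative phosphorylation 61 were lower and 0 higher (median -0.53), among them Cox6c, of complex IV, at -0.69 (SE 0.06) and Atp5f1b, the beta subunit of the ATP synthase, at -0.56 (SE 0.05). Of 79 cytosolic ribosomal protein genes 64 were lower and 0 higher (median -0.46), with Rps10 at -0.87 (SE 0.09) and Rpl17 at -0.59 (SE 0.06). Many of these genes have processed pseudogene copies, so the split of reads between copies is uncertain. Of 18 glycolysis genes 16 were lower (median -0.42), with Gapdh at -0.47 (SE 0.05) and Aldoa at -0.53 (SE 0.05), and of 22 heat shock and chaperone genes 13 were lower and 1 higher (median -0.41), with Hsp90aa1 at -0.54 (SE 0.05) and Hspa8 at -0.50 (SE 0.05).

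Fewer of these genes passed under other fits. With no replicate block 9 of 13 mitochondrially encoded, 22 of 75 nuclear, 25 of 79 ribosomal, 2 of 18 glycolysis and 2 of 22 chaperone genes were lower, and with length-scaled counts 11, 26, 31, 0 and 7. In male pools 1 and 3 alone 1 of 13 mitochondrially encoded genes (median -0.33), 6 of 75 nuclear ones (median -0.41) and 10 of 79 ribosomal ones (median -0.39) passed, besides 2 glycolysis and 4 chaperone genes. With the chemoreceptor share as a covariate, 12 of 13 (median -0.81), 3 of 75 (median -0.53) and 0 of 79 (median -0.41) passed, where the median of all genes moved from 0.03 to -0.10.

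The other genes among the 15 lowest were of mixed function. S100a1, a calcium-binding protein, fell from 15.8, 26.0 and 27.5 CPM to 10.5, 12.5 and 14.9 CPM with no overlap (-0.88, SE 0.13), as did Plekhb1, a membrane-associated pleckstrin homology protein, from 118 to 196 CPM to 54.8 to 105 CPM (-0.80, SE 0.07). Rab9, a GTPase of late endosomes, had -0.89 (SE 0.16), Polr2j, a subunit of RNA polymerase II, -0.92 (SE 0.22), Fam162a, a mitochondrial membrane protein, -0.82 (SE 0.17), and Mrps21, of the mitochondrial ribosome, -0.80 (SE 0.16). B4gat1 (-1.56, SE 0.47) and the T-type calcium channel gene Cacna1h (-1.20, SE 0.33) varied widely within the populations, B4gat1 from 4.54 to 49.8 CPM and from 2.59 to 43.0 CPM. B4gat1 did not pass without female pool 1 (-1.60, adjusted p = 0.0753), female pool 2 (-1.22, adjusted p = 0.145), male pool 2 (-1.24, adjusted p = 0.149) or male pool 3 (-1.11, adjusted p = 0.144). Cacna1h did not pass without female pool 1 (-1.25, adjusted p = 0.0516), male pool 1 (-1.06, adjusted p = 0.11) or male pool 2 (-0.75, adjusted p = 0.0695). Replication-dependent histone genes gave 15 lower and 0 higher of 64 (median -0.41), and 7 to 13 lower with a pool left out. The 15 were 23.4% of those tested, beside 23.2% of abundant genes and 0.422% of protein-coding genes averaging under 10 CPM. The 68 genes listed summed to a median of only 814 CPM in non-ensemble libraries, and the list was not split by level. Neither share is therefore a matched background for the histone genes. Their lowest log2 fold change was that of H2ac23, a gene the study names for the cortex. H2ac23 was at 0 CPM in 1 and at 6.51 to 28.4 CPM in 5 non-ensemble libraries, and at 8.48 CPM in 1 (male pool 1) and 0 CPM in 5 overlapping ones (log2 fold change -5.16, SE 0.90, adjusted p = 0.00128, edgeR). For the female mPFC the study reports H2ac23 higher in cocaine-seeking than in non-ensemble neurons, and lower than in overlapping ones. That order was not seen here, where every female overlapping library was at 0 CPM. A count of 0 allows up to 0.176 to 0.294 CPM in these libraries (3 counts, counting error only), and histone copies are nearly identical, so reads may be split between them. H3c2, another of these genes, had -1.01 (SE 0.23).

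Of 15 tested genes that the study names for the cortex, 2 were higher (13.3%, against 4.00% of all genes) and 3 lower (20%, against 11.5%). Acad9, a mitochondrial acyl-CoA dehydrogenase and assembly factor of complex I, rose by 0.40 (SE 0.07, adjusted p = 0.00147), from 454, 679 and 1284 CPM to 623, 1014 and 1454 CPM, and Maip1, a protein of the mitochondrial matrix, by 0.36 (SE 0.08, adjusted p = 0.00594). Both were higher in 6 of 6 pools, and with the chemoreceptor share as a covariate their values were -0.10 and -0.15. The paper reports both as lower in cocaine-seeking than in non-ensemble neurons of males, a different comparison. Prkcb, a protein kinase C, had -0.38 (SE 0.06, adjusted p = 0.000549) and Prrc2c, a stress granule protein, -0.15 (SE 0.04, adjusted p = 0.0387, all edgeR). Prrc2c passed in none of the 6 fits that left out a pool (-0.13 to -0.09, adjusted p = 0.155 to 0.327). The list was chosen by the study on libraries of this series, so its counts are not independent evidence of direction.

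Chemoreceptor genes were higher in part. Of 1287 tested, 164 (12.7%) were higher and 0 lower, 1150 lay above 0, and the median was 0.41. Or51v8, an odorant receptor gene, was at 472, 629 and 951 CPM in non-ensemble and at 604, 829 and 1133 CPM in overlapping libraries, higher in 6 of 6 pools, with a log2 fold change of 0.35 (SE 0.05, adjusted p = 0.000359, edgeR). The vomeronasal receptor gene Vmn2r30 had 0.59 (SE 0.09). Of 3792 pseudogenes 149 (3.93%) were higher, near the 4.00% of all genes, and 35 (0.923%) lower, at a median of 0.37, and they held 3.34 to 9.46% (median 5.16%) of non-ensemble and 4.59 to 11.8% (median 7.33%) of overlapping counts, higher in 6 of 6 pools. The rise of chemoreceptor genes was called for 125 genes in male libraries alone (median 0.61) and for 3 higher and 1 lower in female libraries alone (median 0.25). With the share itself as a covariate 0 passed (median -0.10), as the covariate is the sum of the same genes. The family is large and repetitive, and reads of close copies are split by the quantification. Clustered protocadherins (1 higher and 1 lower of 58, median 0.10) and KRAB zinc finger genes (13 and 18 of 402, median -0.01) gave few calls. Cilium and centrosome genes (3 and 6 of 49, median -0.05) and histone deacetylase and DNA methylation genes (1 and 5 of 24, median -0.07) also stood near the median of all genes.

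The other labelled populations of the same pools were set beside the overlapping one in a fit of all 24 mPFC libraries. These comparisons share libraries, so their values are given side by side. Against non-ensemble, cocaine-seeking libraries (tdTomato alone) had 1627 higher (6.06%) and 2796 lower genes (10.4%) of 26861, and sucrose-seeking libraries (cFos alone) 3257 (12.1%) and 3913 (14.6%). Genes of energy metabolism and protein synthesis were mostly lower in both. Of 75 nuclear oxidative phosphorylation genes 56 were lower in cocaine-seeking (median -0.40) and 68 in sucrose-seeking libraries (median -0.65). Of 79 ribosomal protein genes they were 60 (median -0.46) and 69 (median -0.57). Of 13 mitochondrially encoded genes they were 12 and 13, of 18 pan-neuronal genes 17 and 18, and of 31 postsynaptic genes 27 and 26. Of the 21 microglial genes 17 were higher in cocaine-seeking (median 0.82), while 0 were higher and 5 lower in sucrose-seeking (median -0.29). The summed microglial level was 504 to 794 CPM in cocaine-seeking and 287 to 339 CPM in sucrose-seeking libraries, so the 2 populations with tdTomato lay above the 2 without it. Csf1r followed this order, at 74.8, 110 and 147 CPM in cocaine-seeking and 39, 42.9 and 56.9 CPM in sucrose-seeking libraries.

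**Figure D5:**
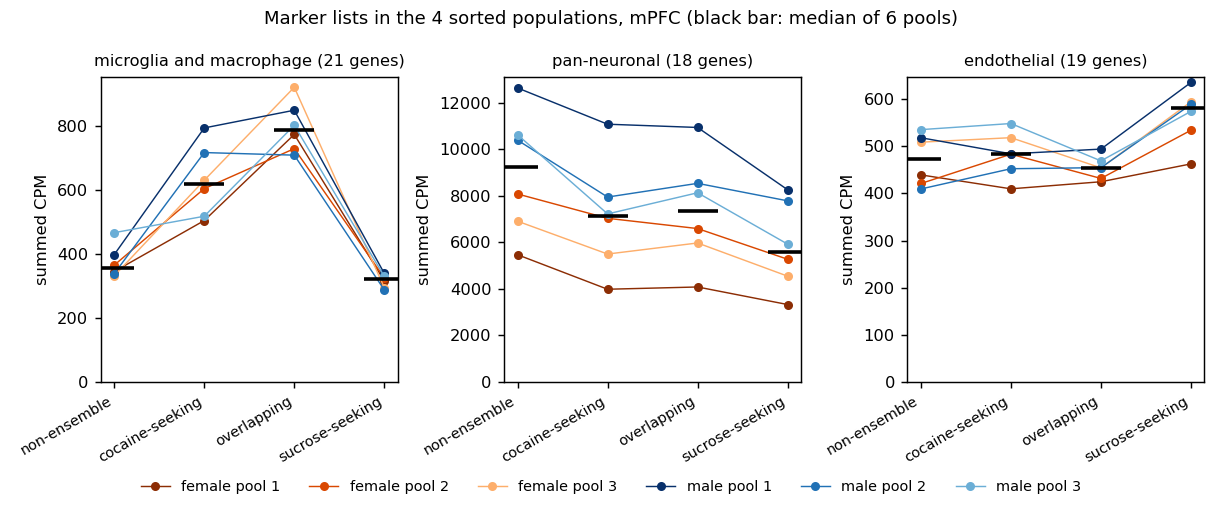
Points give the summed CPM of 3 gene lists in the 4 sorted mPFC populations, a line per pool, with black bars at the medians of 6 pools and axes from 0. Microglial genes are high in the 2 tdTomato-positive populations (cocaine-seeking and overlapping), and the median of endothelial genes is highest in the sucrose-seeking population.

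Between overlapping and sucrose-seeking libraries, which both carry cFos, 1011 genes (3.76%) were higher and 842 (3.13%) lower in the overlapping ones. Microglial genes gave 19 higher and 0 lower of 21 (median 1.35), and Csf1r had 1.74 (adjusted p = 2.2e-10, edgeR). Pan-neuronal genes were higher than in sucrose-seeking libraries, 14 of 18 (median 0.39), whereas they were lower than in non-ensemble ones. Sst was higher too, by 0.73 (adjusted p = 1.23e-07, edgeR). Endothelial genes gave 0 higher and 7 lower of 19 (median -0.63), with Cldn5 at -1.09 (adjusted p = 0.000652) and Flt1 at -0.86 (adjusted p = 0.000368, both edgeR). The kainate receptor gene Grik2, higher than in non-ensemble libraries, was lower than in sucrose-seeking ones (-0.41, adjusted p = 0.000419, edgeR).

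Between overlapping and cocaine-seeking libraries, which both carry tdTomato, 0 of 26861 genes passed in edgeR (0.00%), with 658 higher (2.45%) and 509 lower (1.89%) at an unadjusted p under 0.05, and DESeq2 called 3. The median of the microglial list was 0.35, and C1qa had 0.46 (SE 0.15, adjusted p = 1). A test that finds 0 genes does not show that the 2 populations are alike.

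The effect of the overlapping population was not shown to differ between the sexes. The interaction of population and sex gave 0 of 23602 genes (0.00%) in edgeR, with 1054 more positive (4.47%) and 321 more negative (1.36%) in males at an unadjusted p under 0.05; DESeq2 called 14 and limma-voom 24. Females alone gave 144 higher (0.571%) and 694 lower genes (2.75%) of 25216, and males alone 533 (2.40%) and 1068 (4.82%) of 22178. Females alone had 16 of 21 microglial genes higher (median 1.29) and males alone 15 (median 1.05). C1qa had 2.06 in females and 1.09 in males, a difference of -0.96 (SE 0.21, adjusted p = 0.423, edgeR). Female pool 2 held Y-linked transcripts, and the sexes also differed in their chemoreceptor share (3.17 to 5.10% in female and 1.47 to 1.86% in male non-ensemble libraries), so sex and these measures cannot be told apart.

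Overlapping against non-ensemble neurons of the NAc was the nearest comparison without shared libraries. Both regions were taken from the same mice, and the fit blocked pools within each region, so the regions are not independent. The interaction of population and region gave 0 of 25463 genes (0.00%) in edgeR, with 230 more positive (0.903%) and 803 more negative (3.15%) in the mPFC at an unadjusted p under 0.05, and DESeq2 called 1. Csf1r was at 53.5, 63.2 and 86.5 CPM in non-ensemble and 131, 149 and 185 CPM in overlapping NAc libraries, a range close to that of the mPFC. Of 21 microglial genes 0 differed between the regions, at a median difference of 0.16. Since 4 of 6 mPFC pools lacked high cortical markers, the regions are compared only as the title codes name them.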

How the data were processed

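Transcripts were quantified by the authors with Salmon after trimming with cutadapt and quality checks with FastQC, with versions not given in the sources. The deposited tables hold estimated counts, TPM and effective lengths per transcript. The labels give poly-A RNA as the molecule while the study's methods describe low-input libraries with ribosomal depletion. Counts were used, while TPM and effective lengths of the authors served only for length-scaled counts. Of 117209 transcripts, 116085 were matched to GENCODE release M39 (GRCm39), and the rest held 2.23 to 7.1% of a library. Counts were summed to 35889 genes and rounded.

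Genes were filtered by population and tested with edgeR 4.0.16 (R 4.3.3, TMM factors, quasi-likelihood test, Benjamini-Hochberg adjustment), with the pool as a block, since populations of a pool come from the same 3 mice. Deviations of same-pool libraries correlated at 0.147 on average (0.081 to 0.293), those of other pairs at -0.074. SE is the log2 fold change over the square root of F. Alternatives were limma 3.58.1 (voom), DESeq2 1.42.0, other scalings, no filter, length-scaled counts, protein-coding genes alone, other blocks, each sex, and each pool left out. On simulated counts of this comparison (23602 genes), 59% of 100 genes changed by a log2 fold change of 1 and 67% of 100 changed by 1.5 were recovered, with 9 false calls. The fits with the chemoreceptor covariate and with male pools 1 and 3 alone were chosen after the data were seen. The members and lists were chosen with earlier results of these data known. Genes named are Fos, Rbfox3 and Slc17a7, the 15 highest and 15 lowest protein-coding genes past 0.05 with a mean of at least 10 CPM, up to 4 members of smallest adjusted p per list, and genes the study names for the cortex, and any others were chosen after their values were seen. With the pool as a block, p-values measure how the difference within a pool varies over the pools, not the spread of levels between pools. Some genes that the rule names are not reported here. Drug-naive libraries and the cocaine-seeking and sucrose-seeking NAc libraries were not used here.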

Additional observations from a re-analysis of the deposited data

Results flagged for a closer look

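In 9 of 240 groups of 6 libraries examined, 1 library stood apart from the other 5, where chance gives about 1 in 20. Male pool 1 was apart among non-ensemble libraries for C1qb at 21.86 CPM (next 15.2) and Fcrl2 at 19.1 CPM (next 9.49), and among overlapping libraries for H2ac23 at 8.478 CPM (the others at 0) and B4gat1 at 43.03 CPM (next 9.402). Male pool 3 was apart among non-ensemble libraries for Fcer1g at 7.254 CPM (next 2.344) and Olfml3 at 30.93 CPM (next 17.66), and among overlapping libraries for Hba-a1 at 36.35 CPM (next 20.12). The remaining ones were Mrps21 in the non-ensemble library of female pool 3 at 13.42 CPM (next 21.15) and Grik2 in the overlapping library of male pool 2 at 143.9 CPM (next 111.0).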

How the results depend on the processing

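The count of genes higher at the study thresholds (69) was 23 with no replicate block, 123 with DESeq2, 2 with length-scaled counts, 146 in the fit of 24 libraries, 21 in females, 35 in males, 3 with the chemoreceptor covariate, 20 in male pools 1 and 3 alone and 54 to 64 with a pool left out. At an adjusted p under 0.05 (943 higher) it was 82 with no replicate block, 61 with length-scaled counts, 1528 with 24 libraries, 144 in females, 533 in males, 13 with the covariate, 217 in male pools 1 and 3, and 682 to 972 with a pool left out. Genes lower at the study thresholds (40) numbered 5 with no replicate block, 68 with no filter, 5 with length-scaled counts, 23 among protein-coding genes, 8 in females, 21 in males, 8 with the covariate, 14 in male pools 1 and 3, and 15 to 37 with a pool left out. At 0.05 (2713 lower) they were 217 with no replicate block, 380 with length-scaled counts, 694 in females, 1068 in males, 62 with the covariate, 124 in male pools 1 and 3, and 1534 to 2030 with a pool left out. The sex interaction (0) gave 14 with DESeq2, 43 with no filter, 24 with limma-voom, 1 among protein-coding genes and 1 to 5 with a pool left out, and the region interaction (0) 1 with DESeq2, 4 with no filter and 0 with each pool left out. Overlapping against sucrose-seeking (1853) gave 187 with no replicate block, 2807 with DESeq2, 42 with length-scaled counts and 1008 to 1898 with a pool left out, and against cocaine-seeking (0) 3 with DESeq2. Log2 fold changes of opposite sign came with the chemoreceptor covariate for Knop1 (-0.66), Chodl (-0.03), Ptprc (-0.15), B4gat1 (1.47), Cacna1h (0.22), Acad9 (-0.10), Maip1 (-0.15), H2-D1 (-0.18) and Oas3 (-0.24), where the median of all genes moved by -0.13, and with length-scaled counts for Cacnb3 (0.00). Of 101 genes in the text that passed, 39 kept call and direction with no replicate block, 39 with length-scaled counts, 97 with DESeq2, 100 with limma-voom, 24 with the covariate and 87 to 96 with a pool left out, where 18 genes lost their call at least once. The causes were not tested.

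Depth limits genes listed at 0 to under 0.176 to 0.294 CPM.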
